A study of Drosophila melanogaster with 6 samples.

Results

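The dpr, DIP, beat and side families of immunoglobulin cell surface genes were examined in tendon precursors of the Drosophila leg disc. Members were the genes of the expression table whose name is dpr followed by a number, begins with DIP- or beat-, or is side. This rule found 34 of 17411 genes, namely 19 dpr genes, 14 beat genes and side. It found 0 genes with a DIP name, because the table holds the DIP genes under older names. By gene identifier, a further 20 genes belong to the same families, namely the 11 DIP genes, 7 side paralogs, dpr1 and dpr21. They are described after the 34 members and are not counted with them, except where all 54 genes are named.

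Leg imaginal discs of white pupae at 0 h after puparium formation (APF) were dissociated and sorted by fluorescence-activated cell sorting (FACS), and messenger RNA was sequenced in 3 libraries of GFP+ cells and 3 libraries of input (IP) cells. Both populations came from discs of the same genotype, labelled sr-gal4>UASGFP and given in the study's methods as UAS-Lifeactin.GFP; sr-gal4/TM6b, tb. The Gal4 driver is inserted at the stripe locus (sr), whose product specifies tendon cells, and GFP therefore reports cells with an active stripe enhancer. Input cells were sorted first and independently of fluorescence, so they include GFP+ cells, and the order of sorting cannot be told apart from the group.

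The dpr and DIP proteins are small cell surface proteins with immunoglobulin domains, and particular dpr proteins bind particular DIP proteins on neighbouring cells. The beat and side proteins form a second such network of ligands and receptors. In the fly both networks are best known from neurons, where they guide axons, match motor neurons to muscles and pair synaptic partners. In the leg, muscles attach to internal tendons that grow from the disc epithelium, and leg motor axons reach the same muscles.

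Values are FPKM, fragments per kilobase of transcript scaled to the number of mapped reads, with 1 value per gene and group and its lower and upper confidence bound. A gene was called higher or lower where the bounds of both groups did not overlap. The expression table holds 1 FPKM per group and no value of a single library, and the statistics of the authors' own comparison were not used, so no p-value is given. In sorted bulk samples, fewer cells of a type and less RNA per cell cannot be told apart.

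At an FPKM of 1 or more, 19 of the 34 members were detected in GFP+ cells against 10 in input cells. Of all genes, 50.4% reached that level in GFP+ cells against 49.4% in input cells. In detail, 9 members reached it in both groups, 10 in GFP+ cells only, 1 in input cells only and 14 in neither. In GFP+ cells, dpr8 with 1.02 and beat-Ib with 1.03 lay just above the level, and dpr4 with 0.852 lay just below it. In input cells, beat-Ia with 0.886 lay just below it. The median FPKM of the 34 members was 1.16 in GFP+ cells against 0.370 in input cells. Over all genes the medians were 1.07 and 0.912.

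Of the 34 members, 9 were higher in GFP+ cells, 3 were lower and 22 had overlapping bounds. Of all genes, 4.38% were higher and 6.84% were lower by the same rule. Because bounds narrow with expression, the same shares were taken over the 3776 genes whose mean FPKM lay between 0.249 and 7.13, the range of the members. There, 8.9% were higher and 3.79% were lower. That set was matched on FPKM only and includes non-coding genes. Its median transcript was 1471 bases, against 2881 for the members. Its median of the mean normalized count over the libraries was 39.0, against 84.1, so the shares are not like for like in depth. The ratio of GFP+ to input FPKM was above 1 for 27 members, or 79.4%, against 53.2% of the genes in that range. The median log2 ratio, with 0.1 added to both values, was 1.33 for the members and 0.09 for the genes in that range.

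**Figure D1:**
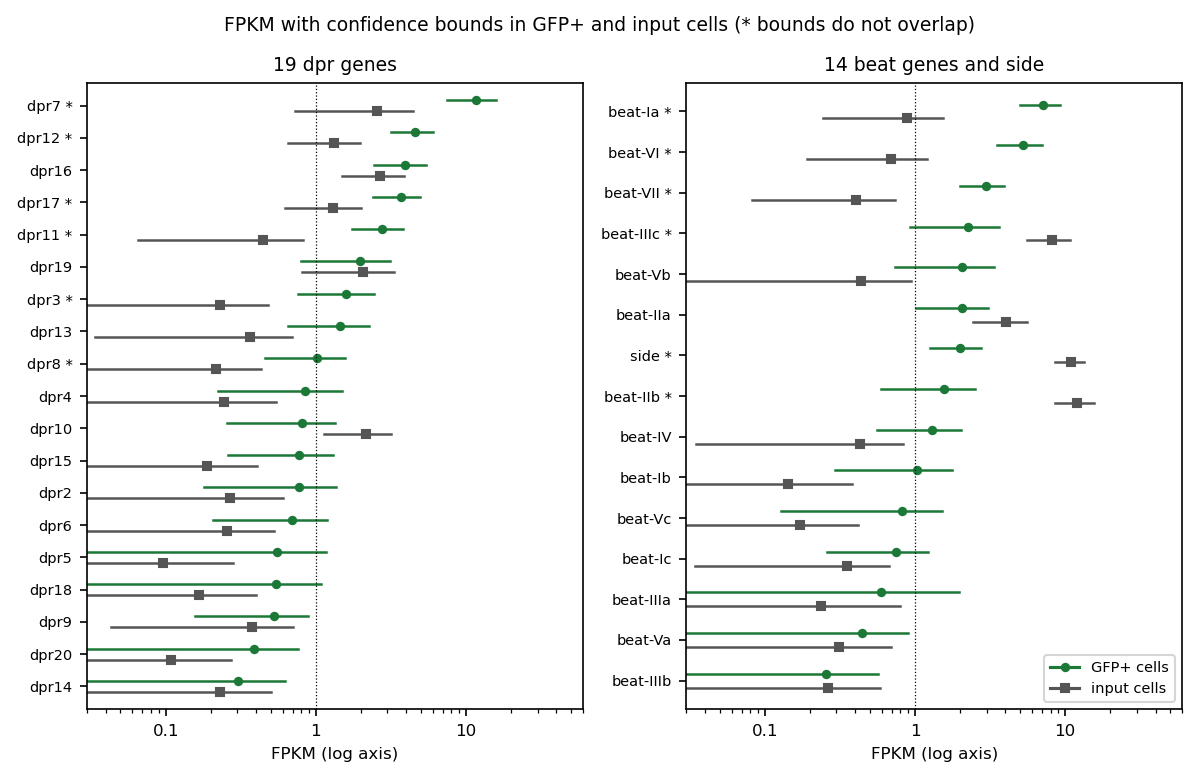
FPKM on a log axis for each of the 34 members in GFP+ cells (green circles) and input cells (grey squares), with lines for the confidence bounds and a dotted line at an FPKM of 1. Lines that reach the left edge have a lower bound at or near 0. The 9 higher members have the green circle to the right with bounds apart, while beat-IIIc, side and beat-IIb have the grey square to the right with bounds apart.

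The dpr genes encode the partners of the DIP proteins. Of the 19 dpr members, 6 were higher in GFP+ cells and 0 were lower, and the FPKM was above that of input cells for 17. The summed FPKM of the 19 genes was 38.9 in GFP+ cells against 15.3 in input cells, and dpr7 alone gave 30.1% of the first sum. The median log2 ratio was 1.42.

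The dpr7 gene (FBgn0053481, chromosome 4, bases 247124 to 253329 of BDGP6, minus strand) had the highest FPKM of the members in GFP+ cells. Its FPKM was 11.7 in GFP+ cells, with bounds of 7.46 and 15.9. In input cells it was 2.57, with bounds of 0.729 and 4.41, so the ratio was 4.55 and the bounds did not meet. For dpr12, whose protein binds DIP-delta in mushroom body axons, the FPKM was 4.59 in GFP+ cells (bounds 3.18 to 6.01) against 1.31 in input cells (0.650 to 1.97), a ratio of 3.502. For dpr17, which encodes a partner of DIP-gamma, it was 3.67 (2.41 to 4.93) and 1.31 (0.623 to 1.998), a ratio of 2.80. These 3 genes were above an FPKM of 1 in both populations.

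The remaining 3 higher dpr genes were below 1 in input cells. The dpr11 gene, whose protein binds DIP-gamma at the neuromuscular junction and in the visual system, had 2.77 in GFP+ cells (1.75 to 3.79) against 0.443 in input cells (0.0651 to 0.821), a ratio of 6.25. The dpr3 gene had 1.599 (0.761 to 2.44) against 0.231 (0 to 0.480), a ratio of 6.92, which was the largest among the called dpr members. The dpr8 gene, which encodes a partner of DIP-beta, had 1.02 (0.459 to 1.57) against 0.215 (0 to 0.432), a ratio of 4.72. For dpr3 and dpr8 the lower bound in input cells was 0, so the size of the ratio is poorly fixed.

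The bounds overlapped for the other 4 dpr genes that reached an FPKM of 1 in either group. The dpr16 gene, whose protein also binds DIP-gamma, had 3.95 in GFP+ cells (2.46 to 5.45) against 2.67 in input cells (1.49 to 3.85). The dpr19 gene had 1.96 (0.793 to 3.13) and 2.07 (0.804 to 3.33), a ratio of 0.949. The dpr13 gene had 1.45 (0.652 to 2.24) and 0.365 (0.0340 to 0.696), so its bounds met by a narrow margin.

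The only member at 1 or more in input cells and below 1 in GFP+ cells was dpr10. This gene is known from leg muscles, where its protein is the partner of DIP-alpha on leg motor neurons. Its FPKM was 0.803 in GFP+ cells (0.257 to 1.35) against 2.16 in input cells (1.13 to 3.18), a ratio of 0.373 with overlapping bounds. The 8 myoblast genes listed below were lower in GFP+ cells as well, and their part in the dpr10 value was not tested.

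The other 9 dpr members (dpr2, dpr4, dpr5, dpr6, dpr9, dpr14, dpr15, dpr18 and dpr20) were below 1 in both groups. They had between 0.303 and 0.852 in GFP+ cells and between 0.0961 and 0.375 in input cells. The ratio was above 1 for all 9 of them, with a median of 3.25, but no pair of bounds was apart.

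The beat genes encode proteins of the beaten path family. Of the 14 beat members, 3 were higher in GFP+ cells, 2 were lower and 9 had overlapping bounds. Their summed FPKM was 28.4 in GFP+ cells against 28.6 in input cells, but different genes carried the sum. In GFP+ cells beat-Ia gave 25.1% of it, and in input cells beat-IIb gave 42.1%.

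The beat-Ia gene (FBgn0013433, chromosome 2L, bases 16049965 to 16081684, plus strand) encodes the founding member, which lets motor axons leave their bundle at muscle targets. Its FPKM was 7.14 in GFP+ cells (4.97 to 9.31) against 0.886 in input cells (0.245 to 1.53). The ratio of 8.06 was the largest of all called members. For beat-VI (FBgn0039584, chromosome 3R, bases 28418208 to 28474814, plus strand) the values were 5.24 (3.52 to 6.96) and 0.696 (0.192 to 1.201), a ratio of 7.52. For beat-VII they were 2.96 (2.001 to 3.92) and 0.408 (0.0821 to 0.733), a ratio of 7.27. All 3 genes were thus above an FPKM of 1 in GFP+ cells and below it in input cells.

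The opposite pattern was seen for beat-IIb (FBgn0038494, chromosome 3R, bases 17232253 to 17265049, minus strand), which had the highest FPKM of the members in input cells. It had 1.55 in GFP+ cells (0.590 to 2.51) against 12.03 in input cells (8.61 to 15.5), so that input cells were 7.77-fold higher. For beat-IIIc (FBgn0032629, chromosome 2L, bases 17187637 to 17260734, minus strand) the FPKM was 2.27 (0.933 to 3.61) and 8.19 (5.61 to 10.8), or 3.61-fold higher in input cells. The neighbour of beat-IIb, beat-IIa, had 2.04 (1.02 to 3.06) and 4.01 (2.44 to 5.58), with overlapping bounds.

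Bounds also overlapped for beat-Vb, with 2.06 in GFP+ cells (0.732 to 3.38) against 0.437 in input cells (0 to 0.935). The beat-IV gene had 1.30 (0.558 to 2.04) and 0.431 (0.0347 to 0.827). The beat-Ib gene had 1.03 (0.294 to 1.77) and 0.143 (0 to 0.380). These ratios were 4.70, 3.01 and 7.21, within the range of the called genes, but the bounds were too wide for a call. The 5 beat members below 1 in both groups (beat-Ic, beat-IIIa, beat-IIIb, beat-Va and beat-Vc) had 0.257 to 0.817 in GFP+ cells, whereas input cells had 0.172 to 0.353, and the ratio was above 1 for 4 of them.

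The sidestep gene side (FBgn0016061, chromosome 3R, bases 27375088 to 27437482, minus strand) encodes the attractant on muscles and other substrates that motor axons read through Beat-Ia. Its FPKM was 1.997 in GFP+ cells (1.26 to 2.73) against 10.9 in input cells (8.61 to 13.3), so it was 5.48-fold higher in input cells. The receptor gene beat-Ia and the ligand gene side were therefore called in opposite directions. Both were above an FPKM of 1 in GFP+ cells.

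Among the 22 members with overlapping bounds, 14 had a ratio of at least 1.5 and none of those 14 had an input FPKM above 0.437. Their mean normalized count over the 6 libraries was at most 86.5, against 83.1 to 401 for the 9 higher members and 443 to 1387 for the 3 lower members. For these 14 genes the bounds were too wide to show a difference, and whether depth set that was not tested.

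The 20 further genes of the families, found by identifier, comprised 5 that were higher, 2 that were lower and 13 with overlapping bounds. Over all 54 genes, 31 reached an FPKM of 1 in GFP+ cells against 15 in input cells, 14 were higher and 5 were lower, and the ratio was above 1 for 44.

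The dpr21 gene, listed in the table under a CG number, encodes a partner of DIP-beta. It had 8.86 in GFP+ cells (4.69 to 13.03) against 0.790 in input cells (0 to 1.92), a ratio of 11.2. Its lower bound in input cells was 0, so the size of that ratio is poorly fixed. The dpr1 gene, the founder of the family, is known for salt aversion. It had 2.39 (1.36 to 3.41) and 1.32 (0.577 to 2.07), with overlapping bounds. In the whole family of 21 dpr genes, 7 were higher and 0 were lower.

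The 11 DIP genes were low in both groups. Their summed FPKM was 10.6 in GFP+ cells against 4.18 in input cells, 6 of them reached 1 in GFP+ cells and 1 did so in input cells. The bounds were apart for DIP-kappa, with 1.55 (0.710 to 2.38) and 0.200 (0 to 0.454), and for DIP-theta, with 1.53 (0.664 to 2.39) and 0.185 (0 to 0.433). Of the exonic bases of DIP-theta, 12.6% lie in a non-coding RNA gene of the same strand, which had 0.287 and 0.0573. Overlapping bounds were found for DIP-epsilon (1.69 against 0.748), DIP-delta (1.29 against 0.469), DIP-beta (1.197 against 0.342) and DIP-lambda (1.07 against 0.113), each given as the FPKM in GFP+ and in input cells. The DIP gene above 1 in input cells was DIP-alpha, with 1.35 and bounds of 0 and 4.33, against 0.435 with bounds of 0 and 2.03 in GFP+ cells. These bounds are too wide to place DIP-alpha in either population.

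The 8 side genes, side included, encode larger proteins and were split in direction, with 2 higher, 3 lower and 3 overlapping. With the trend of the ratio with transcript length subtracted, 5 were higher and 2 lower, since side-II, side-VI and side-VIII gained a call and side-IV lost it. In input cells, side-V had the highest FPKM of all 54 genes, at 32.8 (26.7 to 39.0). It had 9.34 in GFP+ cells (7.31 to 11.4), a ratio of 0.285. It gave 63.9% of the summed FPKM of the side genes in input cells. The side-IV gene had 2.08 (1.19 to 2.97) and 5.24 (3.78 to 6.71), a ratio of 0.397. Higher were side-VII, with 4.70 (3.24 to 6.16) and 1.19 (0.527 to 1.84), and side-III, with 1.31 (0.826 to 1.79) and 0.293 (0.0862 to 0.4996). Antisense RNA genes cover 67.5% of the exons of side-IV, and its count of reads per unit of FPKM and kilobase was 7.87, against a median of 27.7 over expressed genes. How strand was treated in counting is not given in the sources used here, and without strand reads of both genes cannot be told apart, so the side-IV value is uncertain.

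**Figure D2:**
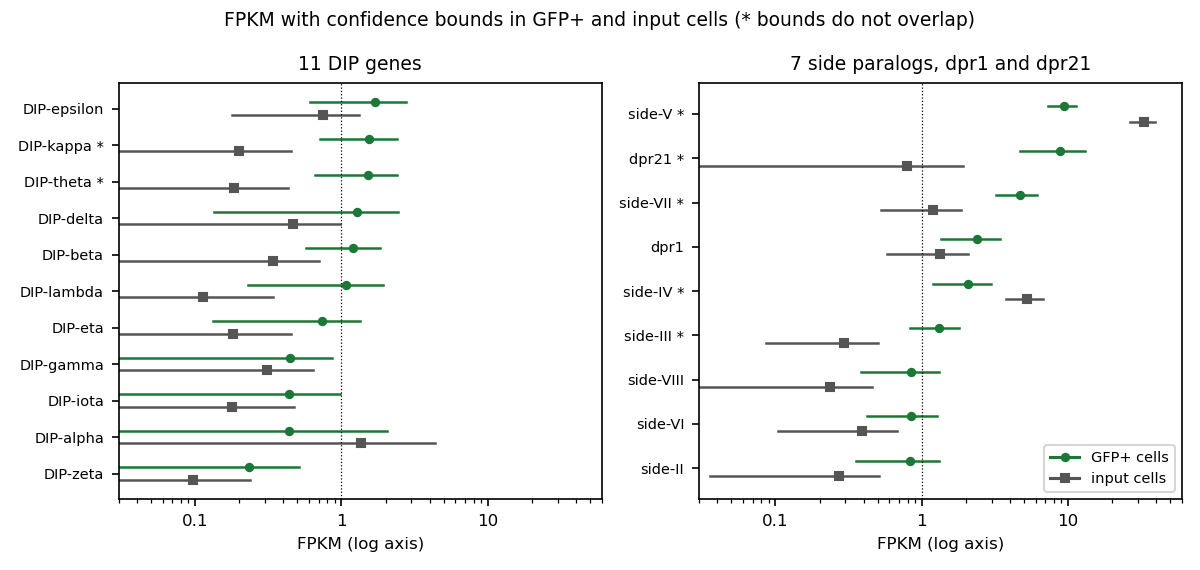
FPKM on a log axis for the 11 DIP genes and for the 7 side paralogs, dpr1 and dpr21, in GFP+ cells (green circles) and input cells (grey squares), with lines for the confidence bounds and a dotted line at an FPKM of 1. DIP genes lie at 1.69 or below in both groups, and side-V and side-IV are the called genes with the grey square to the right.

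Some known binding partners were read side by side, as a description of RNA levels only. Partners of the other DIP genes were not read, among them DIP-kappa and DIP-theta, the DIP genes called higher. DIP-gamma had 0.445 in GFP+ cells against 0.312 in input cells, while its partners dpr11 and dpr17 were called higher and dpr16 and dpr15 were not. DIP-delta had 1.29 and 0.469 with overlapping bounds, while its partner dpr12 was higher. DIP-beta had 1.197 and 0.342 with overlapping bounds, while its partners dpr8 and dpr21 were higher and dpr9 was not. DIP-alpha and its partners dpr6 and dpr10 all had overlapping bounds. Beat-IIa and Beat-IIb bind Side-IV, and of these genes beat-IIb and side-IV were lower in GFP+ cells. Beat-VI binds Side-II, and beat-VI was higher while side-II had 0.835 and 0.273 with overlapping bounds.

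**Figure D3:**
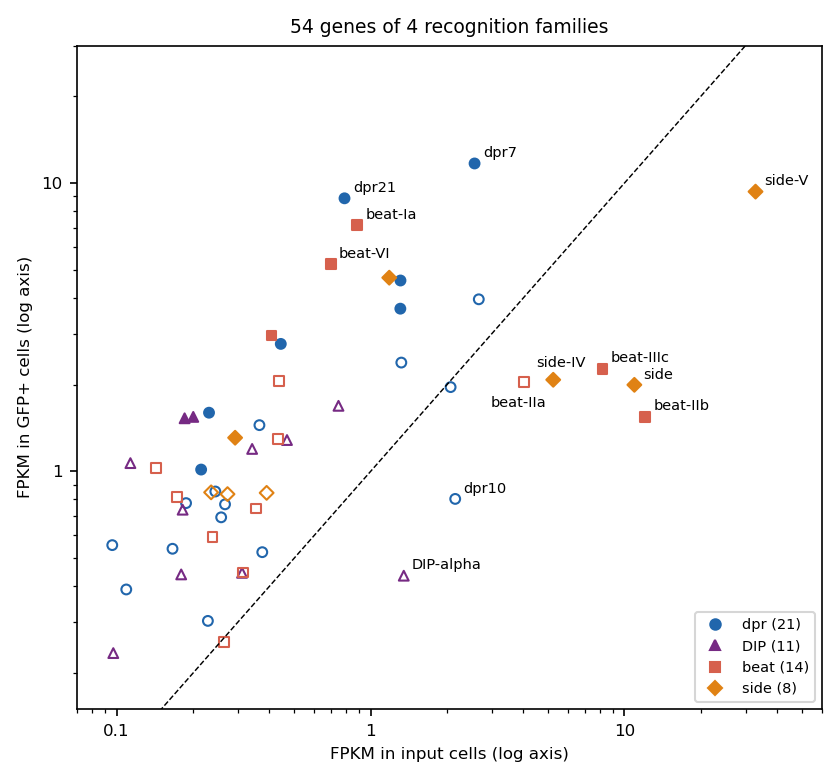
FPKM in GFP+ cells against FPKM in input cells, both on log axes, for all 54 genes, with 1 marker shape per family and a dashed line where both groups are equal. Filled markers are the 14 higher and 5 lower genes with bounds apart, and open markers have overlapping bounds. dpr7, dpr21, beat-Ia and beat-VI lie farthest above the line at high FPKM, and side-V, side, beat-IIb and beat-IIIc lie below it.

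Several of the genes sit next to each other in the genome, and their ratios could differ. In no pair of neighbours within 200 kb were both genes called, so calls within a pair cannot be compared. Ratios of genes that were not called, among them dpr6, dpr10 and beat-IIIa, are uncertain. The dpr6 and dpr10 genes on chromosome 3L are 8.09 kb apart, with ratios of 2.69 and 0.373. On chromosome 2L, beat-Ic and beat-Ia are 8.26 kb apart with ratios of 2.11 and 8.06, and beat-IIIa and beat-IIIc are 14.5 kb apart with ratios of 2.49 and 0.277. On chromosome 3R, dpr17 and dpr15 are 27.4 kb apart with ratios of 2.80 and 4.14, and beat-IIb and beat-IIa are 55.0 kb apart with ratios of 0.129 and 0.509. Of the members, 16 lie on chromosome 3R, 9 on 2L, 3 on 3L, 3 on X, 2 on 2R and 1 on chromosome 4.

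The members are long genes with mid-sized proteins. The median span of the 34 genes was 32.8 kb, against 2.15 kb for the 13596 protein-coding genes of the table, and the median transcript was 2881 against 1608 bases. The median of the longest protein per gene was 396 residues for the dpr family, 532 for the DIP family, 393.5 for the beat family and 1077 for the side family. The ratio of FPKM varied with transcript length across the table. With that trend subtracted, the ratio moved from 7.27 to 12.6 for beat-VII, from 4.72 to 7.42 for dpr8 and from 0.183 to 0.310 for side, and dpr13 was called higher as well, at 5.05. No call among the 34 members was lost. Of the further 20 genes, side-IV lost its call, at 0.631, and DIP-beta (5.25), side-II (4.93), side-VI (3.59) and side-VIII (5.71) were called higher. Over all 54 genes, 19 were then higher and 4 lower. The subtraction also moved the background. Of all 17401 genes with a usable status, 698 were then higher and 527 lower, against 763 and 1190 before. Of the 3776 genes in the members' range of mean FPKM, 400 were then higher and 86 lower, against 336 and 143 before.

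Exons of 3 of the 34 members overlap those of another gene. All exonic bases of beat-IIIa lie in exons of CG34106 on the same strand, and its mean normalized count was 0 while its FPKM was 0.594 in GFP+ cells, so that FPKM is uncertain. Overlaps of 15.7% in dpr4 and 4.04% in dpr16 are with genes of the opposite strand.

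Markers of the cell types in the disc moved between the groups. Of 7 tendon genes, 6 were higher in GFP+ cells, among them sr, with 54.5 against 6.59, and slow was lower. All 8 myoblast genes were lower, with a summed FPKM of 22.2 against 181, and each of them was above 0 in GFP+ cells. Of 6 glial genes, wrapper was lower and the other 5 overlapped, and the defining gene repo had 0.648 against 1.70.

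Neurons are the cells in which these families are best known. Of 10 neuronal genes, nSyb, with 13.7 in GFP+ cells against 2.29 in input cells, Syt1, with 4.27 against 1.66, and Appl, with 17.6 against 9.78, were higher. Syx1A, with 11.04 against 30.2, fne, with 4.19 against 11.4, and futsch, with 0.853 against 2.85, were lower. The pan-neuronal gene elav had 10.1 and 18.6 with overlapping bounds. The summed FPKM of the 10 genes was 66.2 in GFP+ cells against 80.2 in input cells, and their median log2 ratio was 0.34. Of 8 genes of sensory organ precursors, ato was higher, with 15.5 against 2.75, and 7 overlapped. The gene cut (ct), also planned as a sensory organ marker, was lower, with 7.09 against 14.6. It is counted here among the myoblast genes only. The part of neurons, sensory organs, glia or myoblasts in the values of the recognition genes was not tested.

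Other recognition and adhesion proteins, nearly all with immunoglobulin domains, were compared as a list of 41 genes, of which wrapper is also among the glial genes. Of these, 8 were higher, 15 were lower and 18 overlapped, and 35 reached an FPKM of 1 in GFP+ cells against 32 in input cells. By the same rule, 4.38% of all genes were higher and 6.84% were lower. The median log2 ratio of the list was -0.26, against 1.33 for the 34 members. These medians are not like for like, because the list reaches far higher FPKM than the members. Most of the listed genes within the members' range of mean FPKM, 0.249 to 7.13, had a ratio above 1. In that range sns, kek2 and wrapper had ratios of 0.813, 0.400 and 0.0653. The list includes cDIP, a leucine-rich repeat protein near 0 in both groups, and Ptp10D, a receptor phosphatase, which have no immunoglobulin domain. Without them, a choice made after the data were seen, the median of the 39 other genes was -0.24, with 8 higher and 14 lower. The list holds abundant epithelial proteins, such as the septate junction protein Lachesin (Lac), with 478 in GFP+ cells against 480 in input cells, and the adhesion protein Fasciclin 3 (Fas3), with 305 and 252. Among the lower genes were echinoid (ed), a junction protein, with 117 against 341, and the adhesion gene Fas2, with 71.9 against 156. Among the higher genes were klg, with 6.50 against 1.45, fipi, with 6.07 against 0.611, the axon guidance receptor gene robo3, with 4.24 against 1.72, and bdl, with 1.09 against 0.0990. No test compared the list with the recognition families.

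**Figure D4:**
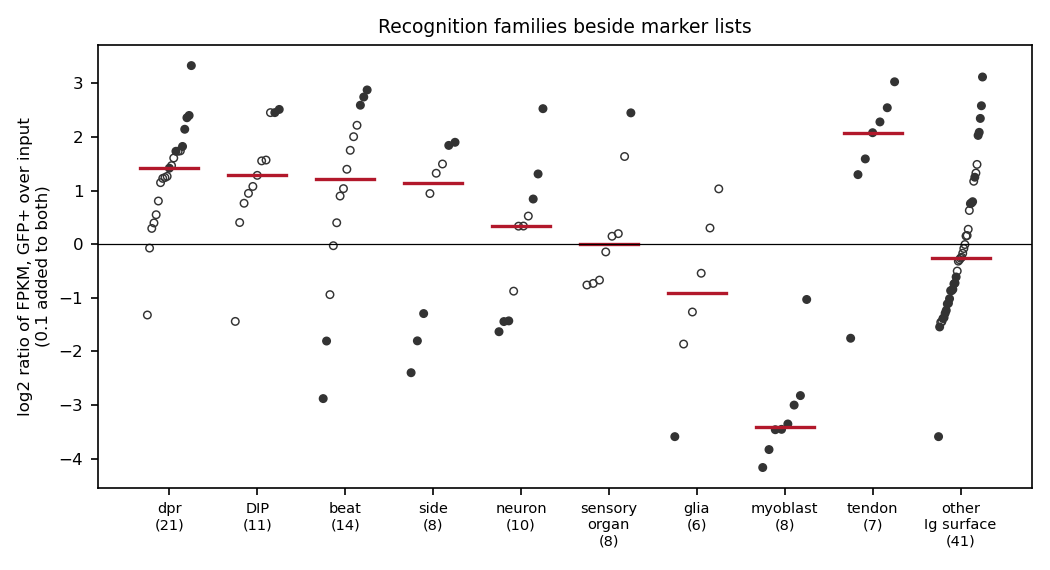
The log2 ratio of FPKM in GFP+ over input cells, with 0.1 added to both values, for each gene of the 4 recognition families, of 5 cell type marker lists and of the 41 other surface genes (other Ig surface). Filled points have bounds that do not overlap, red bars are medians and numbers in brackets are genes. The family medians lie between 1.13 and 1.42, the neuronal median is 0.34 and the myoblast median is -3.40.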

How the data were processed

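Polyadenylated RNA of 3 GFP+ and 3 input samples was sequenced from 1 end, and the authors trimmed reads with Trimmomatic 0.32 before alignment to dm6 with Bowtie2 2.1.0. The FPKM values and their bounds, 1 set for each gene in each group, were deposited by the authors as a gene tracking table of Cufflinks 2.2.1 type, although DESeq2 is named for FPKM in their methods. The confidence level, the annotation release and the read counter are not given in the sources used here. A table deposited by the authors from DESeq2 1.2.8 gave the mean normalized count over the 6 libraries, a signal value used here for depth only, with a sum of 31652166 over genes. Totals of single libraries are not given in the sources used here. The other columns of that table hold the authors' fold changes, standard errors, test statistics, p-values and flags, and were not used. In GFP+ cells, bounds were symmetric around the FPKM unless cut at 0, and the symmetry of bounds in input cells was not checked. The study describes its 3 replicates as independent, but the spread that the bounds cover is not given in the sources used here.

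Of 17411 genes, 17401 had a usable status in both groups. Symbols came from gene identifiers. Coordinates and lengths came from Ensembl 115, of the same assembly, to which 17138 identifiers matched. Log2 ratios used a pseudocount of 0.1, and ratios of single genes used none. No filter was applied. The length trend was a lowess fit (span 0.3, statsmodels 0.14.6) over 8526 genes. Python 3.11.15, pandas 2.3.3, numpy 2.4.6 and matplotlib 3.10.9 were used. The call rule was run on simulated data with noise set from the bounds, over genes with a mean FPKM of 1 or more. That run does not cover genes below that level and cannot show what spread the bounds cover.

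Named genes were every member at an FPKM of 1 or more in either group or with bounds apart, and the others are given by range. The members and gene lists were chosen with earlier results of these data known. Other markers listed were 5 hemocyte genes, all overlapping, 3 tracheal genes, of which Gasp was higher and trh lower, and 5 muscle genes, of which 0 were higher and 2 lower. Alternatives were other FPKM thresholds, pseudocounts, call rules, scalings and filters, and the 54 genes found by identifier, which were added after the data were seen.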

Additional observations from a re-analysis of the deposited data

How the results depend on the processing

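No paired analysis was possible because the tables hold 1 value per group and no value of a single library, and for the same reason no replicate was left out. The number of members detected in GFP+ cells, 19 at an FPKM of 1, was 30 at 0.5, 11 at 2, 3 at 5, 1 at 10 and 10 where the lower bound had to reach 1. In input cells the number, 10 at an FPKM of 1, was 12 at 0.5, 8 at 2, 3 at 5, 2 at 10 and 6 by the lower bound. GFP+ cells thus had more detected members at thresholds up to 2, the same number at 5 and fewer at 10. With a ratio of 1.5 and an FPKM of 1 in place of the bounds, 13 members were higher and 5 lower, against 9 and 3. No share over all genes was taken by that rule or at the other thresholds. Whether these counts differ from those of all genes was therefore not tested. Over all 54 genes, added after the data were seen, 31 were detected in GFP+ cells, 14 were higher and 5 lower. Of all genes, 50.4% were detected in GFP+ cells at an FPKM of 1, and 4.38% were higher and 6.84% lower by the bounds. Dividing by the median ratio of expressed genes (1.01) changed no call, and subtracting the length trend gave 10 higher and 3 lower members, and 19 higher and 4 lower of the 54 genes. Over all 17401 genes with a usable status, the length trend subtracted gave 698 higher and 527 lower, against 763 and 1190 without it.

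The median log2 ratio of the 34 members, 1.33, was 1.61 with a pseudocount of 0.01, 0.49 with 1 and 1.57 with the length trend subtracted. For the 19 dpr genes, 1.42 became 1.75, 0.50 and 1.62. For the 14 beat genes, 1.22 became 0.50 with a pseudocount of 1, 1.62 with the length trend subtracted and 2.01 over genes with a mean FPKM of 1 or more. For the 11 DIP genes, 1.28 became 0.62 with a pseudocount of 1. For the 8 side genes, 1.13 became 1.33 with a pseudocount of 0.01, 0.47 with 1 and 1.85 with the length trend subtracted. It reversed to -1.55 over side genes with a mean FPKM of 1 or more, since that filter leaves out 4 genes with ratios above 1. A pseudocount added to both values cannot turn the direction of a single gene's ratio, so it is no check of that direction.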
